A study of Mus musculus with 16 samples.

Results

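The genes of glutathione and thiol redox metabolism were examined in 5 right kidneys, 1 from each of 5 wild-type males. They were chosen by name, as all genes with 1 platform symbol that starts with Gsta, Gstm, Gstp, Gstt, Gsto, Gstz, Gstk, Mgst, Gpx, Prdx, Txn or Glrx, together with Gclc, Gclm, Gss, Gsr and Ggt1. The platform named 47 such genes, and 42 of them were measured well enough to test, against 8005 named genes in all. Both probes of Gclc were kept apart, so 43 redox probes are described out of 15715 probes tested. Gpx6, Gpx7, Gstm2, Gstt3 and Txnrd1 had values on 11 to 14 of the 16 arrays, fewer than 3 of 4 for some mouse, and were left untested. Gsr, Ggt1, Gpx3 and Mgst1 were not analysed here.

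The 5 mice, W1 to W5, were untreated littermates on a mixed background of C57BL/6 and 129Sv, aged 88 days with a span of 2 days either way. RNA of W1, W2, W3 and W4 was each set against RNA of W5 on 4 two-colour arrays, 2 with the mouse in channel 1 and 2 with it in channel 2, so that the normal spread between individuals could be measured. No group was treated and none carried an altered allele, per the labels. The 4 arrays of a mouse repeat the same RNA extracts, and each extract is from 1 kidney of 1 animal. The tests therefore compare these 5 extracts and do not reach to mice in general.

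Glutathione is made from glutamate, cysteine and glycine, first by glutamate-cysteine ligase, a pair of a catalytic subunit (Gclc) and a modifier subunit (Gclm), and then by glutathione synthetase (Gss). Transferases attach it to reactive compounds, peroxidases use it to reduce peroxides, and glutaredoxins use it to reduce protein disulphides, while thioredoxins, their reductases and the peroxiredoxins form a parallel thiol system. The kidney, above all its proximal tubule, makes, uses and breaks down glutathione, and many of these genes are known targets of the transcription factor NRF2, which binds antioxidant response elements.

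Values are log2 ratios against W5, turned to 1 sign on the arrays with W5 in channel 1. Which channel is the numerator is not stated in the labels, so a positive value lies on 1 side of W5 and a negative value on the other, and neither can be read as more RNA. The range of a probe is its most positive minus its most negative kidney, W5 counting as 0. Standard errors (SE) are of limma's fit over n = 4 arrays per mouse unless stated. Probes with an adjusted p under 0.05 are described as called. Arrays had values for 80.2% to 91.1% of their probes, and the residual SD of an array ran from 0.153 to 0.174 in W1 and from 0.208 to 0.231 in W4. The number of arrays and of animals limits the precision. The ratios hold no levels, so the labelled tissue could not be checked against its markers by abundance, and in whole kidney fewer cells of a type and less RNA per cell cannot be told apart.

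In the test of whether any of the 5 kidneys differed, 5 of the 43 redox probes were called (11.6%), against 4.00% of all probes tested. They were both probes of Gclc, Gsta2, Gstt2 and Txnip. The 43 count Gclc on both its probes and leave out 7 second probes of other redox genes, none of which was called. Counting Gclc once, on probe 3273, 4 of 42 redox genes were called (9.52%), against 336 of 8005 named genes. At an unadjusted p under 0.05 there were 13 redox probes (30.2%), against 17.9% of all probes. Among W1 to W4 alone, where W5 cancels, 2 of the 43 were called (4.65%), against 0.700% of all probes, namely Gclc on probe 3273 and Gsta2. When W5 was tested against the means of its 4 littermates, 1 redox probe was called, Gclc on probe 5070, against 0.350% of all probes. With 1 probe per gene, probe 3273 for Gclc, no redox gene was called in this test. The other 38 probes had ranges up to 0.45, and the lowest adjusted p among them was 0.170.

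**Figure D1:**
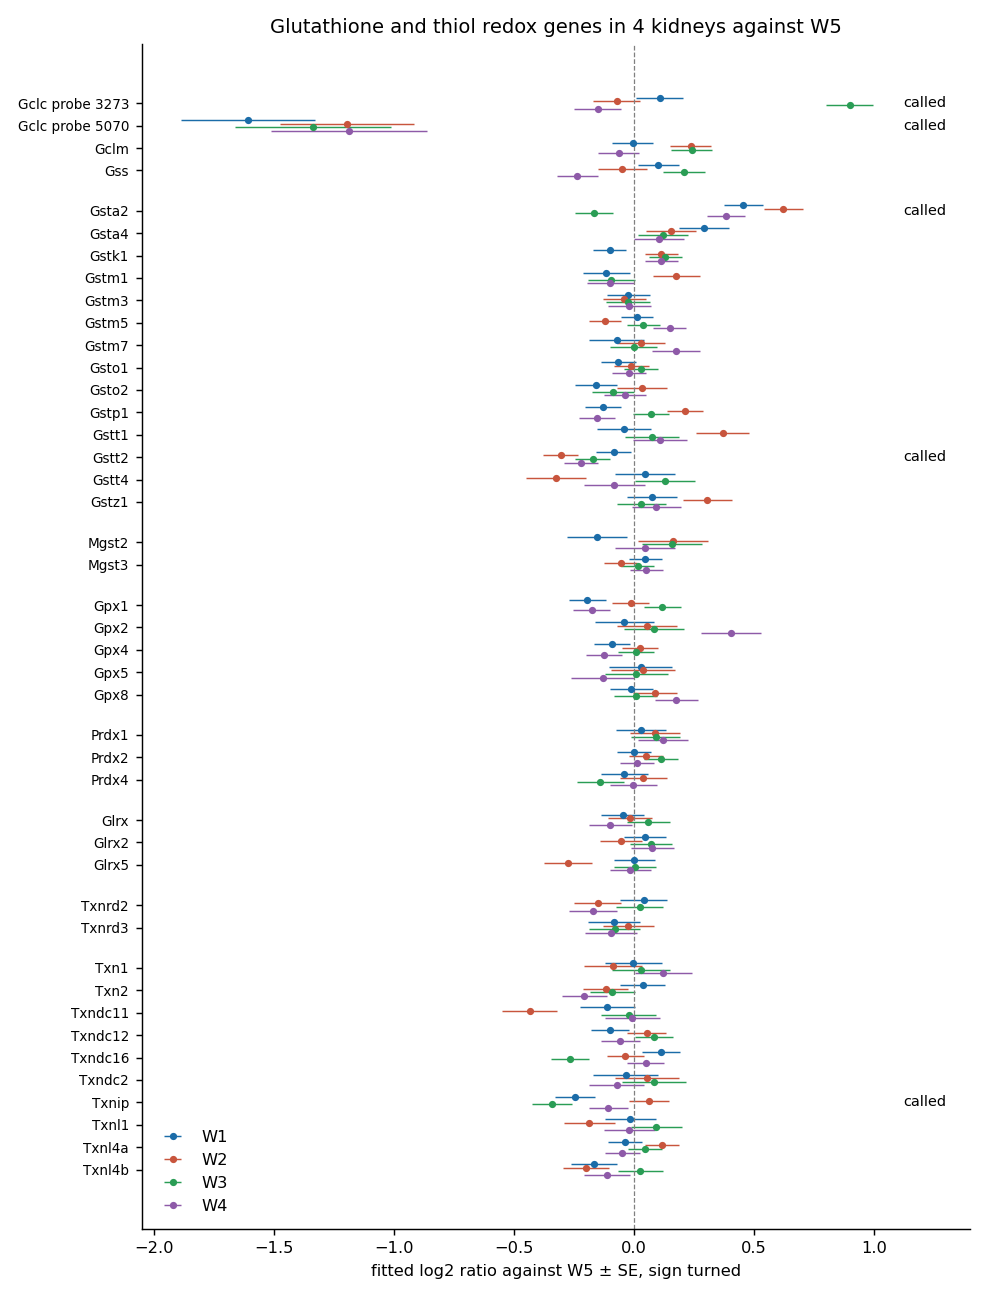
Each point is the log2 ratio of 1 mouse against W5, sign turned, for every redox probe tested, grouped by family, with bars of 1 SE. Probe 5070 of Gclc lies between -1.19 and -1.61 in every mouse. W3 stands apart from W1, W2 and W4 on probe 3273 of Gclc and in Gsta2, and most other points lie within 0.45 of each other. In Gsta2 W3 was not called against W5 (adjusted p = 0.452 by limma) or W4 (0.0508).

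The median range was 0.25 for the 43 redox probes, which is 1.19-fold, and 0.24 for all probes tested, which is 1.18-fold. Ranges ran from 0.04 in Gstm3 to 1.61 in Gclc on probe 5070. A range over 1.5-fold was reached by 3 redox probes (6.98%), against 597 of the 15715 probes in all (3.80%). With 1 probe per gene it was reached by 2 of 42 redox genes (4.76%), against 3.42% of named genes. In 36 of the 43 (83.7%) the 95% confidence intervals of all 4 mice lay within 1.5-fold of W5, against 86.4% of all probes, so for these the data bound the difference of each littermate from W5 at this size.

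**Figure D2:**
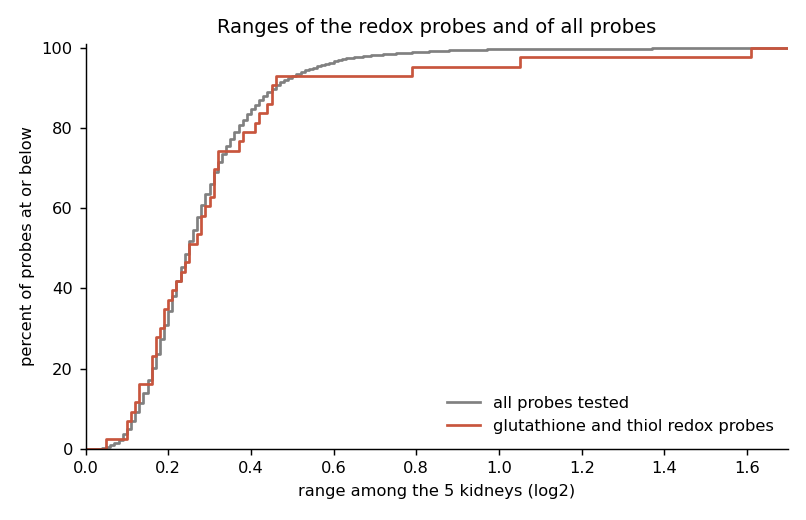
Cumulative percent of probes (vertical axis) with a range among the 5 kidneys at or below the log2 value on the horizontal axis, for the 43 redox probes and for all 15715 probes. At a range of 0.40 the curves stand at 79.1% of redox probes and 84.7% of all probes, at 0.50 both stand at 93.0%, and the 3 redox probes beyond that are 2 of Gclc and 1 of Gsta2.

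Gclc, the catalytic subunit of the ligase that sets the pace of glutathione synthesis, set W3 apart on probe 3273. On the arrays of W3 this probe read 0.87, 1.04, 0.55 and 1.13. It read 0.26, 0.06, -0.07 and 0.18 on those of W1, then -0.03, -0.01, -0.52 and 0.27 on those of W2, and finally -0.32, -0.17, -0.32 and 0.20 on those of W4. All 4 arrays of W3 lay beyond every array of the other mice, whose values scattered around W5. The fitted ratio was 0.90 ± 0.10 (SE) in W3, while W1, W2 and W4 had 0.11, -0.07 and -0.15, with a range of 1.05 or 2.07-fold (adjusted p = 0.00025 over the 5 kidneys and 0.00115 among W1 to W4). W3 differed from each of the other 4 kidneys in the tests of pairs, by 0.79 from W1 (adjusted p = 0.0208), 0.97 from W2 (0.00225), 1.05 from W4 (0.00254) and 0.90 from W5 (6.29e-05). In the order of the kidneys on this probe, W4, W2, W5 and W1 had neighbours 0.07 to 0.11 apart and were not called against each other. W3 lay 0.93 from the median of the other kidneys, and only 5 of the 15715 probes placed W3 at least as far, Gclc itself included. Without mouse W3 the range was 0.26 and the probe was not called (adjusted p = 0.642).

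The other Gclc probe, 5070, gave a different picture. It read -1.23, -1.26, -1.55 and -2.38 on the arrays of W1 and -0.63, -0.43, -1.71 and -2.01 on those of W2. W3 and W4 had 3 values each, with -1.18, -1.34 and -1.61 in W3 and -1.10, -2.28 and -0.31 in W4. All 14 values were negative, and those of the 4 mice overlapped, with W5 at 0 beyond all of them. The fitted ratios were -1.61 and -1.19 (SE 0.28, n = 4 arrays each) in W1 and W2, and -1.34 and -1.19 (SE 0.33, n = 3 arrays each) in W3 and W4 (adjusted p = 0.000776 over the 5 kidneys and 0.897 among W1 to W4). In the tests of pairs W5 was called against W1 (adjusted p = 0.00818) and W2 (0.0320), and not against W3 (0.0888) or W4 (0.0777). The mean of the 4 mice was -1.35 ± 0.19 (SD, n = 4 mice), with an adjusted p of 1.31e-05 in limma's test against W5 and of 0.0284 when a spread of W5 equal to that of the others was added. That SD of 0.19 was below the SE of each mouse, 0.28 or 0.33, and the test on the 4 means takes no account of this SE. The repeat arrays of probe 5070 scattered more than those of nearly every other probe, with a technical SD of 0.71 against 0.20 on probe 3273. The 2 probes of Gclc thus placed different kidneys apart, W3 on probe 3273 and W5 on probe 5070, and which of them follows the Gclc transcript was not tested.

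The other genes of glutathione synthesis were not called. Gclm, the modifier subunit, read 0.24 in W2 and W3, 0.00 in W1 and -0.06 in W4, each ± 0.09 (SE), with a range of 0.31 (adjusted p = 0.170). Gss, the synthetase, had a range of 0.44, from -0.24 in W4 to 0.21 in W3 (adjusted p = 0.205). In Gss W3 was the most positive kidney, as on probe 3273 of Gclc. In Gclm W2 and W3 read alike, W2 minus W3 being -0.005 ± 0.12 (SE, adjusted p = 0.998 by limma), whereas W2 read -0.07 on probe 3273. W3 lay 0.24 from the median of the others in Gclm and 0.23 in Gss. The unadjusted p of Gclm and Gss was 0.0169 and 0.0248. Gclm is a member whose promoter carries the core letters of an antioxidant response element, TGACNNNGC. Searched on both strands of the 250 bases before each gene start (RefSeq, GRCm38.p6), these letters occurred in 6 of 50 member windows (12%), belonging to 6 of the 37 member genes with a window, and in 3338 of 32851 windows of all genes (10.2%). The 6 genes were Gclm, Prdx1, Gstm5, Gstm7, Txndc11 and Txndc2, and Gsta2 and Txnip, the called genes with a window, were not among them. They are shown for the ligase subunit, the peroxiredoxin and a pair of mu class transferases, read 5′ to 3′ along the gene's strand, with the match in capitals; in Gclm and Prdx1 the letters lie on the opposite strand and so appear reversed and complemented.
Gclm, chr3:122245413-122245441, plus strand: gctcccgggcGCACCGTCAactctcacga
Prdx1, chr4:116685456-116685484, plus strand: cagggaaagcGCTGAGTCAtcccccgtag
Gstm5, chr3:107895802-107895830, plus strand: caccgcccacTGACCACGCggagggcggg
Gstm7, chr3:107931725-107931753, minus strand: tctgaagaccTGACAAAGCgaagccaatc
A match of this kind is a description of the letters and not a binding site. Gclc and Gstt2 had no entry in the promoter table and were not searched.

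Among the 14 soluble and mitochondrial transferases tested, Gsta2 and Gstt2 were called. Gsta2, an alpha class enzyme that conjugates electrophiles and reduces lipid hydroperoxides, had the lowest adjusted p of all redox probes. It read 0.46, 0.37, 0.36 and 0.63 on the arrays of W1, 0.69, 0.56, 0.37 and 0.86 on those of W2, and 0.36, 0.21, 0.37 and 0.58 on those of W4. On the arrays of W3 it read -0.18, -0.10, -0.20 and -0.19. Every array of W1, W2 and W4 was positive and every array of W3 negative, so W3 again did not overlap the other littermates, here from the opposite sign to probe 3273 of Gclc. The fitted ratios were 0.45, 0.62, -0.17 and 0.38 in W1 to W4, each ± 0.08 (SE), with a range of 0.79 or 1.73-fold (adjusted p = 4.22e-05 over the 5 kidneys and 0.00525 among W1 to W4). In order, W3 and W5 were neighbours 0.17 apart that were not called against each other (adjusted p = 0.452). W4, W1 and W2 followed, with 0.38 between W5 and W4 (adjusted p = 0.0183) and no call within these 3. W3 differed from W1 by 0.62 (adjusted p = 0.0299) and from W2 by 0.79 (0.00225), and W5 differed from W1 by 0.45 (0.00706) and from W2 by 0.62 (0.000228), while W3 against W4 missed the threshold at 0.55 ± 0.11 (adjusted p = 0.0508). Over 4 mice, the mean against W5 was 0.32 ± 0.34 (SD, adjusted p = 0.225). Without W3 it was 0.49 ± 0.12 (SD, n = 3 mice, adjusted p = 0.0333 by limma). Without W1, W2 or W4 the adjusted p was 0.410, 0.512 and 0.425. W3 lay apart on these same values, so its removal itself lowers the SD. Alpha class genes share much sequence, so the Gsta2 probe may also read relatives such as Gsta1, and its value is uncertain to that extent.

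The bases upstream of Gsta2 are shown because it was called in both tests and its rat counterpart is a classic gene of antioxidant response element studies. The 250 bases before its start hold no match to TGACNNNGC on either strand, which says only that these letters are not in this window.
Gsta2, chr9:78347146-78347395, minus strand: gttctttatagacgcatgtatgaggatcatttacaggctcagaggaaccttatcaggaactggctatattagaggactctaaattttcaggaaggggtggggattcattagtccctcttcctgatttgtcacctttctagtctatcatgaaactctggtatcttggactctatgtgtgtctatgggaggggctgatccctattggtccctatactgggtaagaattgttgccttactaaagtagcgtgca

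**Figure D3:**
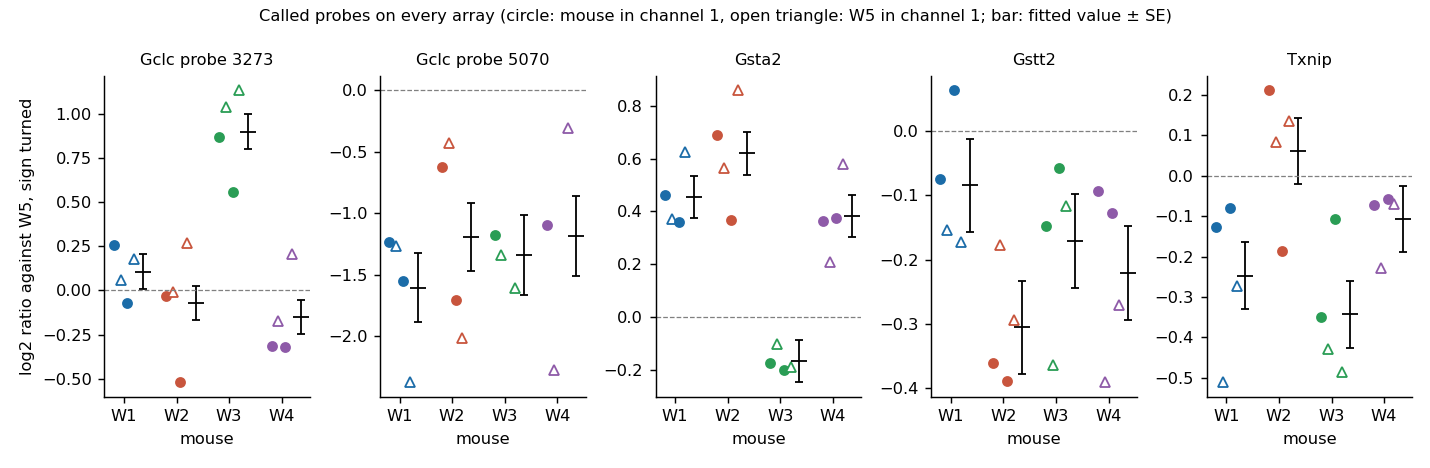
Log2 ratio against W5, sign turned, on every array for the 5 called redox probes, by mouse, with points for the 2 channel orientations and the fitted value ± SE of each mouse, each panel on its own vertical scale. The arrays of W3 lie at 0.55 to 1.13 on probe 3273 of Gclc and at -0.20 to -0.10 in Gsta2, clear of all arrays of W1, W2 and W4 in both, while on probe 5070 all 14 values are negative.

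Gstt2, a theta class transferase, differed little but with low scatter. Its arrays read -0.08, -0.15, 0.06 and -0.17 in W1. W2 gave -0.36, -0.18, -0.39 and -0.29, W3 gave -0.15, -0.36, -0.06 and -0.12, and W4 gave -0.09, -0.39, -0.13 and -0.27. They were negative on 15 of 16 arrays. W1 and W2 came close without overlap, the lowest array of W1 at -0.173 and the highest of W2 at -0.177. They were not called against each other by limma (adjusted p = 0.561). W3 and W4 overlapped both. The fitted ratios were -0.09, -0.31, -0.17 and -0.22, each ± 0.07 (SE), a range of 0.31 or 1.24-fold (adjusted p = 0.0211 over the 5 kidneys and 0.652 among W1 to W4). The pair W2 and W5 was called (0.31, adjusted p = 0.0305), neighbours in the order of the kidneys were 0.05 to 0.09 apart without a call, and the mean of -0.20 ± 0.09 (SD, n = 4 mice) was not called against W5 (adjusted p = 0.164). The call was lost in 7 of 30 alternative settings, without array 1 or array 3 of W2, without each mouse in turn and without the 2 arrays of fewest values, with adjusted p up to 0.143 and a range between 0.22 and 0.37 over all 30.

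The remaining transferases were not called. Gstt4 and Gstt1, the theta class neighbours of Gstt2 on chromosome 10, had ranges of 0.45 and 0.41 (adjusted p = 0.413 and 0.265) and lay on opposite sides of W5 in W2, at -0.32 and 0.37. Gstp1, the pi class enzyme, had a range of 0.36 with 0.21 in W2 and -0.15 in W4 (adjusted p = 0.175). The 4 mu class genes tested, Gstm1, Gstm3, Gstm5 and Gstm7, had ranges of 0.29, 0.04, 0.27 and 0.25. Gstm3 was the steadiest of all redox genes, with -0.02 to -0.04 in every mouse, each ± 0.09 (SE). Gsta4, which prefers the lipid aldehyde 4-hydroxynonenal, had a range of 0.29 (adjusted p = 0.265), Gstz1 of the tyrosine breakdown pathway 0.31, the mitochondrial and peroxisomal Gstk1 0.23, and the omega class Gsto1 and Gsto2 0.10 and 0.19. The membrane-bound Mgst2 and Mgst3 had ranges of 0.31 and 0.11 (adjusted p = 0.649 and 0.892). Paralogs within a class share sequence, so the values of single members are uncertain where a probe binds several.

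Among the peroxide-reducing enzymes none of the 5 glutathione peroxidases tested was called by limma, and 1 had an unadjusted p under 0.05. Gpx2, the epithelial form, had the largest range at 0.44, with W4 at 0.40 ± 0.12 (SE) and the other mice between -0.04 and 0.08 (adjusted p = 0.301). Gpx1, the abundant cytosolic selenoenzyme, had a range of 0.31 (adjusted p = 0.223), and Gpx4, which reduces lipid hydroperoxides in membranes, 0.15 (adjusted p = 0.644). Prdx1, Prdx2 and Prdx4, thiol peroxidases of the cytosol and the endoplasmic reticulum, had ranges of 0.12, 0.11 and 0.18, with adjusted p of 0.776 or more and none at an unadjusted p under 0.05.

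Of the thioredoxin system, Txnip alone was called. It encodes the protein that binds reduced thioredoxin and inhibits it, and its transcription rises with glucose. Its arrays read -0.13, -0.51, -0.08 and -0.27 in W1. W2 gave 0.21, 0.08, -0.19 and 0.14, W3 gave -0.35, -0.43, -0.11 and -0.48, and W4 gave -0.07, -0.23, -0.06 and -0.07. W1, W3 and W4 were negative on all arrays and W2 was positive on 3 of 4, and the mice overlapped. The fitted ratios were -0.25, 0.06, -0.34 and -0.11, each ± 0.08 (SE), a range of 0.40 or 1.32-fold (adjusted p = 0.0397 over the 5 kidneys and 0.336 among W1 to W4). None of the 10 pairs of kidneys was called for it by limma, and neighbours in the order W3, W1, W4, W5 and W2 were 0.06 to 0.14 apart. The call was lost in 19 of 30 alternative settings, with adjusted p between 0.00915 and 0.314. It was lost without any 1 of 13 of the 16 arrays, the others being array 3 of W2, array 3 of W3 and array 4 of W4, and without mouse W1, W3 or W4.

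The Txnip promoter is shown because it holds a spaced pair of E-box-like repeats known from carbohydrate response elements. The letters CACGAG, then any 5 bases, then CACGAG again, were a search chosen after the values were seen. On either strand they occurred in 1 of 32851 windows of this length, that of Txnip (0.00304%). These are the very letters that this window carries, so the count describes them and tests nothing. They are given in capitals.
Txnip, chr3:96557707-96557956, plus strand: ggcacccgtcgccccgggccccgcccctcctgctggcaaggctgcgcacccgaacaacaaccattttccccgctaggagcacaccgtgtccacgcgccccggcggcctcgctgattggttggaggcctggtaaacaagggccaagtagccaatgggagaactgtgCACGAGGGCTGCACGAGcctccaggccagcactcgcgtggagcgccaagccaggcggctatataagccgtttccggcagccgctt

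The thioredoxins themselves differed little. Txn1, the cytosolic form, had a range of 0.21 (adjusted p = 0.896) and Txn2, the mitochondrial form, 0.24 (adjusted p = 0.441). The reductases that recharge them had ranges of 0.21 for the mitochondrial Txnrd2 (adjusted p = 0.57) and 0.10 for Txnrd3 (adjusted p = 0.857). Among thioredoxin-domain relatives, Txndc11 lay at -0.43 ± 0.12 (SE) in W2 and between -0.11 and -0.01 in the other mice (range 0.43, adjusted p = 0.190), and Txndc16 at -0.27 in W3 against -0.04 to 0.11 (range 0.38, adjusted p = 0.216). Of the 3 glutaredoxins, Glrx5, which serves iron-sulphur cluster assembly in mitochondria, had the largest range at 0.28, with -0.27 in W2 and 0.00 to -0.02 elsewhere (adjusted p = 0.453).

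Glrx2, Gpx4, Gsta4, Gstz1, Txn2, Txndc16 and Txnrd2 had second probes with ranges of 0.15, 0.23, 0.13, 0.19, 0.18, 0.38 and 0.19, and none was called by limma or had an unadjusted p under 0.05. None of their first probes was called either. Both Txndc16 probes placed W3 on the far negative side, at -0.27 and -0.20.

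Over the 10 pairs of kidneys, 12 of 430 redox tests were called (2.79%), against 0.717% over all probes. Of the 12, Gsta2 gave 5, Gclc 4 on probe 3273 and 2 on probe 5070, and Gstt2 1. Either W3 or W5 was in each of the 12 pairs. Only the pairs W1 with W2, W1 with W4 and W2 with W4 hold neither of these kidneys. They held no redox call by limma (6, 3 and 4 at an unadjusted p under 0.05), where 0.185%, 0.235% and 0.274% of all probes were called. Over all probes these pairs held 29, 37 and 43 of 1127 calls, so there too most calls were in pairs with W3 or W5. The pairs of W3 with W1, W2 and W4 held 2, 2 and 1 redox calls of 43 each, beside 0.159%, 0.299% and 0.280% of all probes. The pairs of W5 held 2 with W1, 3 with W2, 1 with W3 and 1 with W4, beside 0.795%, 2.34%, 0.592% and 2.01% of all probes. W5 was on every array, so its pairs had a smaller SE, in Gsta2 0.08 against 0.11 for pairs within W1 to W4. A difference of a given size is therefore called more easily in pairs with W5.

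The dye term measures how far a probe's turned value in each channel orientation lies from the midpoint of the 2 orientations. It was called in 7 of the 43 redox probes (16.3%), against 12.5% of all probes. These were Gpx1, Gstm5, Gsto1, Gstt1, Txndc2, Txnl1 and Txnl4b, with sizes up to 0.29 to either side of that midpoint in Gstt1. None of the 7 was called between kidneys by limma (2 at an unadjusted p under 0.05). For the 5 called probes the adjusted p of the dye term was 0.0642 or more.

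Gclc and Gsta2 lie on the same chromosome, 9, and this was looked up after their values were seen. The gene table (GRCm38.p6) has 10 protein-coding genes between them, and a window reaching 10 genes beyond each holds 32. Besides the pair, 8 of these were measured, each described on 1 probe: Scg3, Lrrc1, Elovl5, Fbxo9, Gsta4, Eef1a1, Col12a1 and Cox7a2. None was called by limma, 2 had an unadjusted p under 0.05, and the lowest adjusted p was 0.180, that of Eef1a1 with a range of 0.50. W3 lay between -0.12 and 0.11 from the other kidneys' median in these 8, against 0.93 in Gclc on probe 3273 and -0.59 in Gsta2. A second probe of Col12a1 placed W3 at -0.21 from that median and had an unadjusted p of 0.032 (adjusted p = 0.232), and a second probe of Gsta4 placed it at -0.08 (adjusted p = 0.753). Elovl5, Fbxo9 and Gsta4 are the measured genes between the pair.

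**Figure D4:**
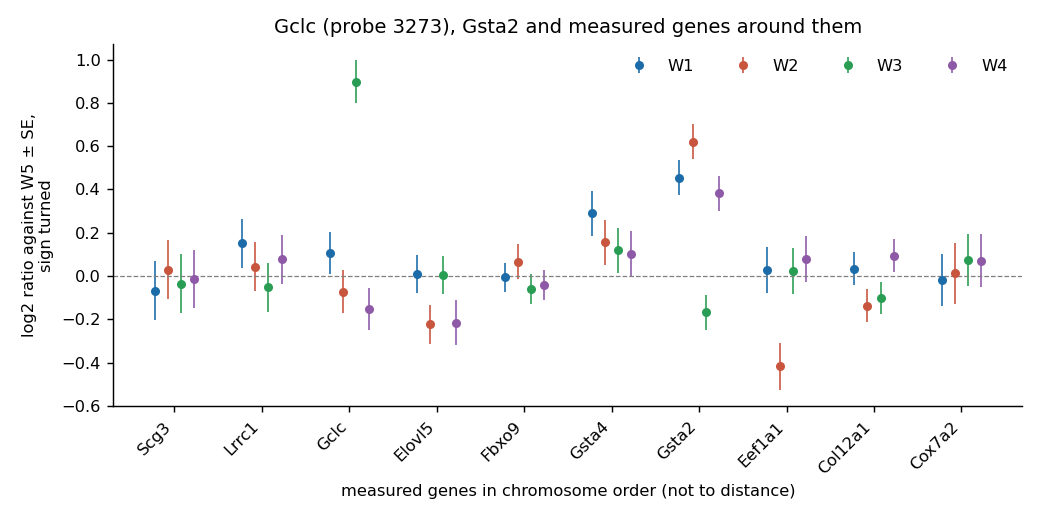
Log2 ratio against W5, sign turned, in W1 to W4 (points, bars of 1 SE) for Gclc on probe 3273, Gsta2 and the 8 measured protein-coding genes around them, in chromosome order and not to distance. W3 lies at 0.90 in Gclc and below the other mice in Gsta2, and within 0.12 of the other kidneys' median in all 8 neighbours, each on the 1 probe that stands for it.

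Genes related to these in function were counted from 3 lists. Of 20 measured NRF2 targets and regulators 3 were called, of 22 genes of cysteine and glutathione supply and breakdown 1, and of 24 other antioxidant and selenium genes 1. Together that was 5 of 66, with a median range of 0.24, beside 336 called of 8005 named genes and their median range of 0.23. Among the NRF2 targets, Osgin1, a stress-induced regulator of growth, placed W3 apart with 0.47 against -0.30, -0.03 and -0.12 in W1, W2 and W4 (range 0.78, adjusted p = 0.0265). Aldh1a7, an aldehyde dehydrogenase, split the mice another way, with -1.25 and -1.08 in W1 and W2 and 0.48 and 0.25 in W3 and W4 (adjusted p = 1.41e-05). Srxn1, which repairs overoxidised peroxiredoxins, was positive in all 4 mice, at 0.18 to 0.34 (adjusted p = 0.0446). Dpep1, the brush-border dipeptidase that splits cysteinylglycine from glutathione breakdown, reached 0.47 in W4 (adjusted p = 0.00589). Mt2, a metallothionein rich in thiols, was negative in all 4 mice, at -0.25 to -0.44 (adjusted p = 0.0188).

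Markers of kidney cell types and of other tissues also differed between these kidneys, and their part in the redox differences was not tested. Of the measured markers, 3 of 4 of endothelium, 2 of 3 of glomerulus and 3 of 3 of fat were called. So were 3 of 6 of the S3 segment of the proximal tubule and 3 of 4 of distal tubule and collecting duct. Among all named genes 336 of 8005 were called. The called S3 markers did not shift together. In W1 to W4 Slc17a3 read 0.52, 0.22, 0.23 and 0.26, and Slc5a1 -0.26, -0.43, -0.19 and -0.34. Slc22a7 read -0.05, -0.53, 0.02 and -0.50. Nor did the called distal ones. Slc26a4 read 0.15, 0.38, 0.28 and 0.07, and Foxi1 -0.05, -0.27, -0.29 and -0.27. Aqp2 read -0.36, 0.05, -0.13 and -0.54. The glomerular markers were Podxl, at 0.40, 0.68, 0.04 and 0.47 in W1 to W4, Ehd3, at 0.08, 0.36, -0.09 and 0.29, and Synpo, which was not called, at -0.24, -0.05, -0.11 and -0.15. In Podxl and Ehd3, as in Gsta2, W3 had the least value and W2 the most positive, and in Synpo W1 had the least. The endothelial markers had medians of 0.04, 0.48, -0.03 and 0.42, which set W2 and W4 against W1 and W3, whereas Gsta2 was positive in W1 too. The fat markers were negative in all 4 mice, with medians of -0.37, -0.36, -0.64 and -0.53, the sign of Gstt2 and of probe 5070 of Gclc. None of the 3 markers of the S1 and S2 segments was called (1 at an unadjusted p under 0.05), nor the 1 of the loop of Henle (1), the 2 of red blood cells (0), the 6 of leukocytes (3), the 3 of adrenal (1) or the 3 of muscle (2).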

How the data were processed

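Right kidney RNA of W1 to W4 was compared with that of W5 on 16 two-colour arrays. The authors deposited log2 ratios of the channels; per the labels, mean intensities less background were normalised to bring the median ratio to 1. That the base is 2 follows from the values, since 1.48% to 4.9% of them on each array match log2 of small whole-number ratios (numbers to 12, tolerance 2e-06). The labels state neither the dye of each channel nor the numerator nor what left cells empty.

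The sign was turned on arrays with W5 in channel 1. Probes measured in every mouse on 3 or more of its 4 arrays were fitted together with limma 3.58.1 in R 4.3.3 (lmFit and eBayes), with 4 mouse coefficients and a probe-specific dye term. Moderated F tests asked whether the 5 kidneys, or W1 to W4 alone, differed, and moderated two-sided tests took the 10 pairs and the dye term. The 4 mouse means were tested against 0 for W5, which leaves out W5's own spread. Benjamini-Hochberg adjustment ran over all 15715 probes, and the fit was tested on simulated data.

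Of 20205 probes, 11723 had 1 symbol in the platform annotation, 806 several and 7676 are unnamed here. The probe with most arrays stood for a gene, except Gclc, where each probe is given. Array values are given for called members and for Gclc. In families without a call the member of largest range is named, and abundant kidney members and the rest of a family by range. Promoters are RefSeq's (GRCm38.p6). The members and lists were chosen with earlier results of these data known. Alternatives left out the dye term, single arrays and mice, changed filters and weights, or added blocks.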

Additional observations from a re-analysis of the deposited data

Results flagged for a closer look

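The difference among W1 to W4 in the contrast against W5 was itself tested and called for Gclc on probe 3273 (adjusted p = 0.00115, limma), where W3 read 0.90 against -0.15 to 0.11 in the other 3 mice, with all 4 arrays of W3 beyond theirs. The same test was called for Gsta2 (adjusted p = 0.00525), where W3 read -0.17 against 0.38 to 0.62 in the other 3, with all 4 arrays of W3 negative and all of theirs positive.

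For Txnip, array 2 of W4 at -0.23 stood apart from the other 3 arrays of W4, which read -0.06 to -0.07. It was the 1 value so marked in 23 sets of 4, of which 18 held the 4 arrays of a mouse and 5 the 4 fitted mouse values of a called probe, and chance marks about 1 set in 20.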

How the results depend on the processing

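Over 30 alternative settings Gsta2 kept its 5-kidney call in all, and Gclc on probe 5070 in all 29 in which it was fitted. Gclc on probe 3273 lost it without mouse W3, Gstt2 in 7 settings and Txnip in 19. The 5 members called in the 5-kidney test became 3 without the 2 arrays of fewest values, 3 to 5 when 1 array was left out (3 without array 1 of W2) and 2 to 4 when 1 mouse was (3 without W1 or W4, 2 without W3). All probes called, 629, became 403 without the dye term, 384 with 1 probe per named gene, 457 to 671 without 1 array and 335 to 510 without 1 mouse (378 without W1, 335 without W2). Among W1 to W4, the 2 members became 0 without mouse W3, and the 110 probes became 62 without the dye term, 240 with array weights, 72 to 125 without 1 array (72 without array 2 of W3) and 49 to 70 without 1 mouse. The 12 member calls over pairs became 8 to 15 without 1 array and 4 to 12 without 1 mouse, where 6 pairs are left (6 without W1, 7 without W2, 4 without W3). The member called in the W5 test became 0 on probes with all 16 arrays, which drops Gclc probe 5070, 3 with the mouse as a random block (Gclc probe 5070, Gsta2 and Gstt2, correlation -0.00713) and 2 without W3 (Gclc probe 5070 and Gsta2). At that correlation the block counted the 16 arrays nearly as 16 animals. Its calls of Gsta2 and Gstt2 therefore rest on repeat arrays, and over mouse means their adjusted p was 0.225 and 0.164 by limma. The member count of the W5 test stayed 1 with mouse coefficients in place of means, a setting added after seeing the data. The 7 dye calls became 6 to 8 without 1 array and 3 to 5 without 1 mouse (4 without W2, 3 without W3 or W4). The 5 related genes became 3 without the dye term, 9 with array weights, 3 to 6 without 1 array (3 without array 3 of W1 or array 2 of W3) and 2 to 4 without 1 mouse (3 without W1 or W3, 2 without W4). With the array number as a replicate block, 4 members and 591 probes were called over 5 kidneys, 2 and 97 among W1 to W4, 13 over pairs and 4 related genes, and Txnip had an adjusted p of 0.0599. Arrays of one number in different mice had residual correlations of -0.253 to 0.135, and 0 of 16 correlated best with their own number. Arrays of one number share a channel orientation, and fitting the dye term itself lowers the correlation of such residuals between mice. This check therefore cannot tell whether the numbers pair the arrays. The cause of each change was not tested, beyond the fewer probes, arrays or mice. Signal over background cannot be judged from ratios alone.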
